A study of Mus musculus with 10 samples.

Results

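The comparison of lung with pancreas ILC2 chromatin covered every open chromatin region (OCR) with at least 1 count, 49981 of the 50039 regions in the table, in the 2 lung and 2 pancreas libraries out of 10. ATAC-seq reads, which mark DNA that the Tn5 transposase can reach, had been counted in regions merged over ILC2s from bone marrow (BM), lung, large intestine (LI), small intestine (SI) and pancreas, and the comparison asks where the chromatin of these cells differs between the 2 organs. All libraries came from untreated wild-type C57BL/6 male mice of 6 weeks, with 50000 sorted cells in each. Lung and pancreas ILC2s were sorted with the same gate, lineage-negative CD45+CD127+ST2+CD25+, from organs pooled over 16 mice. LI ILC2s passed this gate too, BM ILC2s were gated as lineage-negative ST2+CD25+, and SI ILC2s by KLRG1 and low Thy1, without ST2. The LI and SI pools held 10 mice. In comparisons with BM and SI the gate and the tissue cannot be told apart. The pancreas was digested for a shorter time than the lung, and the sources differ on its DNase I, which was more than the lung received by the labels and none by the study's methods, so the effect of the digestion and that of the tissue cannot be told apart. Each library came from a pool, so the p-values measure the spread between pools and not that between single mice. Each region carries the name of the RefSeq gene whose transcription start site (TSS) on mm10 lies closest, which does not show that the region acts on that gene.

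ILC2s are tissue-resident lymphocytes without antigen receptors that answer epithelial alarmins such as IL-33 with IL-5, IL-13 and amphiregulin, and they depend on the transcription factors GATA3 and RORα. TGF-β binds a complex of the receptors TGFBR1 and TGFBR2, which leads to the phosphorylation of SMAD2 and SMAD3. With SMAD4 these form complexes that bind DNA at SMAD boxes, such as CAGACA or the palindrome GTCTAGAC. The complexes switch on genes for their own inhibitors such as Smad7, Pmepa1 and Ldlrad4. AP-1 dimers of FOS and JUN proteins, induced when lymphocytes are activated, bind TGANTCA, and GATA factors bind AGATAA.

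The chromatin of lung and pancreas ILC2s differed in both directions, mostly away from promoters, with more regions higher in pancreas. In edgeR's quasi-likelihood test with Benjamini-Hochberg adjustment, 808 regions (1.62% of those tested) were higher in lung and 2099 (4.20%) were higher in pancreas at an adjusted p under 0.05. At an unadjusted p under 0.05 the counts were 3691 (7.38%) and 6676 (13.4%). The regions higher in lung had a median log2 fold change (log2FC, lung over pancreas) of 1.35 and those higher in pancreas of -1.54, while the median over all regions was -0.01. A log2FC above 2 was reached by 112 regions in lung and one below -2 by 444 in pancreas. In 56.6% of all regions the lung and pancreas libraries did not overlap, so a lack of overlap alone marked no region out. They did not overlap in 100% of the called regions in either direction, so a lack of overlap adds nothing to a call. The counts rested on all 4 libraries, because leaving out lung replicate 2 left 81 regions higher in lung and 129 higher in pancreas, leaving out pancreas replicate 2 left 186 and 292, leaving out pancreas replicate 1 left 276 and 1101, and leaving out lung replicate 1 left 460 and 1118. The split of calls also moved with the scaling: 27.8% of calls were higher in lung as reported, 43.0% after a trend of log2FC on GC content and region width was removed, and 59.2% when libraries were scaled by their totals alone, which raised the median log2FC of all regions to 0.24.

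SMAD boxes were more frequent in the regions higher in lung. In the central 300 bp, read on both strands, CAGACA was present in 48.4% of the regions higher in lung, 24.7% of those higher in pancreas and 25.5% of all regions. The palindrome GTCTAGAC was present in 3.09%, 0.191% and 0.374%, and of the 187 regions that hold it 13.4% were higher in lung and 2.14% in pancreas. The central 200 bp of 4 regions higher in lung are printed on the plus strand of mm10, with CAGACA, which reads TGTCTG from the other strand, and the palindrome in capitals. They were chosen to show boxes in an inhibitor of the TGF-β pathway (Pmepa1 at chr2:173275235-173275434 in its intron 1), the palindrome (nearest Olfr9 at chr10:128984881-128985080, intergenic; Plekhg1 at chr10:3835555-3835754 in its intron 2) and a tandem array of boxes (nearest Galnt4 at chr10:99170828-99171027, in intron 10 of Poc1b).
Pmepa1: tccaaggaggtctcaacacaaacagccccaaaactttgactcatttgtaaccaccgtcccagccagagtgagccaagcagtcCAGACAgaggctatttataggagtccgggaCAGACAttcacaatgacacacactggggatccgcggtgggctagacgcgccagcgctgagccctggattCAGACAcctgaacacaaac
Olfr9: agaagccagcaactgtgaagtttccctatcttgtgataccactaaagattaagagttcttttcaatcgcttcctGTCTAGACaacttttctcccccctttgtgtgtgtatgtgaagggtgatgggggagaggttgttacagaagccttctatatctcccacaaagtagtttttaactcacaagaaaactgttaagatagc
Plekhg1: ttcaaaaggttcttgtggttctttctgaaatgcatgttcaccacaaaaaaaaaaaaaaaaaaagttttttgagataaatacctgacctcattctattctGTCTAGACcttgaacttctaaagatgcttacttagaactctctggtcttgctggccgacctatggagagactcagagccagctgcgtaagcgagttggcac
Galnt4: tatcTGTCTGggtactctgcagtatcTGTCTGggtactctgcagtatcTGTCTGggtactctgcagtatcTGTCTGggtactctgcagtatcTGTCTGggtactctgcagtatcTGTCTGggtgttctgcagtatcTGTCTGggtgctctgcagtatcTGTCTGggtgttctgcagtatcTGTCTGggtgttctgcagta

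AP-1 and GATA letters were more frequent in the regions higher in pancreas. TGANTCA was present in 35.0% of them, in 20.0% of those higher in lung and in 18.3% of all regions. AGATAA was present in 27.3%, 20.5% and 17.1%. TGANTCA shares letters with TGCTGANTC, the BACH and MAF site, which was present in 2.38%, 2.48% and 2.18%. The central 200 bp of 5 regions higher in pancreas are printed in the same way with TGANTCA in capitals, and with AGATAA, which reads TTATCT from the other strand, in capitals too. They show an AP-1 site in 2 regions of strong or repeated change (nearest Eepd1 at chr9:25442832-25443031, intergenic; nearest Nfkbiz at chr16:55776450-55776649, intergenic), AP-1 and GATA together (nearest Il6 at chr5:29893421-29893620, intergenic; Nckap5 at chr1:126747978-126748177 in its intron 1) and a tandem array with 3 AP-1 sites (nearest Gata3 at chr2:9776082-9776281, intergenic).
Eepd1: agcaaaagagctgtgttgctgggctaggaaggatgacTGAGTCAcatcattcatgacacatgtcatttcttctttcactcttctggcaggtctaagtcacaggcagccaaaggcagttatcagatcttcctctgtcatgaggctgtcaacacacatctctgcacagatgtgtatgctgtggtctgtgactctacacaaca
Nfkbiz: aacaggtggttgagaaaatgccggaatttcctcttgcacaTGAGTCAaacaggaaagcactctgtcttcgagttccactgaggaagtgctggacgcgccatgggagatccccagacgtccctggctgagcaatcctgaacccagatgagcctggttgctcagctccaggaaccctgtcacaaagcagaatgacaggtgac
Il6: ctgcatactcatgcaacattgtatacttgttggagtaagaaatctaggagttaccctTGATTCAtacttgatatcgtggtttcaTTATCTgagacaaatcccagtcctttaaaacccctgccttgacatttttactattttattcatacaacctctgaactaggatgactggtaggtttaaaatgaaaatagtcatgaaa
Nckap5: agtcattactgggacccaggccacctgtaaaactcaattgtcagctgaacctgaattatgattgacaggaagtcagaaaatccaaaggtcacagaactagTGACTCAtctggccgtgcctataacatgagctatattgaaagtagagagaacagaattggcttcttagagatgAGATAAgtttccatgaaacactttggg
Gata3: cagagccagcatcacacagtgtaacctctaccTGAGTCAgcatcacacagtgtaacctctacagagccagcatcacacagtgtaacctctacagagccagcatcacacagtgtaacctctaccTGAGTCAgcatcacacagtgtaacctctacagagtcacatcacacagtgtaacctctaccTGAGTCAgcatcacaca

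Promoters, taken as the 1000 bp before and the 100 bp after a TSS, made up 19.3% of all regions but 57 (7.05%) of those higher in lung and 73 (3.48%) of those higher in pancreas. Among the 9629 promoter regions, 0.592% were higher in lung and 0.758% in pancreas. Among the 16314 intergenic regions these shares were 1.69% and 6.30%, and among the 24038 regions inside genes 1.98% and 4.15%. The regions higher in pancreas lay a median of 25.3 kb from the nearest TSS, those higher in lung 18.8 kb and all regions 10.4 kb. Regions higher in pancreas also had a lower GC content, with a median of 45.7% against 49.1% for those higher in lung and 49.8% for all. The part of GC content in these counts was not tested beyond the fit that removes its trend.

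**Figure D1:**
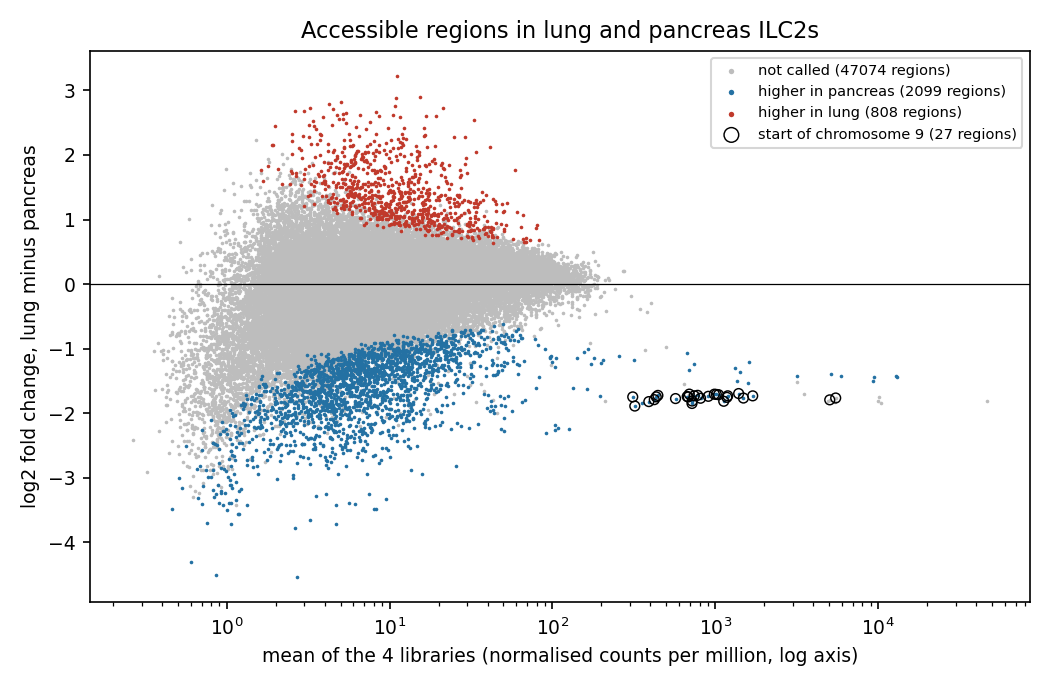
Each point is a region. Its mean CPM over the 4 libraries (counts scaled to the size of the library) is on a log horizontal axis. Its log2 fold change, lung over pancreas, is on the vertical axis. Colours mark the 808 regions higher in lung and the 2099 higher in pancreas at an adjusted p under 0.05. Black circles mark the 27 regions at the start of chromosome 9. Points higher in pancreas lie lower on the plot and are more numerous.

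CPM, the unit of all levels given here, is a count divided by the scaled size of its library. The 2 lung libraries held 22993276 and 32797872 counts and the 2 pancreas libraries 17741625 and 10282987, so pancreas values carry more counting error. Spearman's correlation over regions was 0.975 between the lung libraries, 0.956 between the pancreas libraries and 0.897 to 0.932 between tissues, and no replicate pair agreed within sampling noise. Repetitive DNA took more of the pancreas reads. The 522 regions with over 80% annotated repeat held 6.62% and 4.45% of the CPM in lung replicates 1 and 2 and 10.3% and 20.3% in pancreas replicates 1 and 2, with 7 of them higher in lung and 76 in pancreas. The 28 regions that share a 31-base word with the mitochondrial genome held 3.31% and 4.95% in lung and 11.6% and 7.17% in pancreas, and 22 were higher in pancreas. Without these regions, 801 higher in lung and 2001 higher in pancreas remained among 49431.

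The share of regions higher in lung was larger with more SMAD boxes. Regions with 0, 1, 2, 3 to 4 and 5 or more CAGACA matches in the central 300 bp numbered 37227, 10280, 1851, 442 and 181. The shares of them higher in lung were 1.12%, 2.286%, 4.38%, 9.50% and 18.2%, while the shares higher in pancreas were 4.25%, 4.04%, 4.21%, 2.94% and 6.63%. The median log2FC of the regions with 5 or more matches was 0.30, and it lay between 0.20 and 0.56 in every alternative fit. The median CPM of these regions was 7.27 in lung, 5.21 in pancreas, 5.46 in BM, 4.50 in LI and 4.94 in SI. Many of them were repeats, with a median repeat share of 42.9%. Among the 111 with a repeat share of 50% or less 18.9% were higher in lung and 2 regions in pancreas, and the median log2FC was 0.38. The annotation misses some tandem arrays, such as the one printed for Galnt4, so this subset cannot separate the number of boxes from repeated sequence. Without a library, 1.11% to 13.8% of the regions with 5 or more matches were higher in lung.

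For AP-1 the share of regions higher in pancreas was larger with more matches. Regions with 0, 1, 2, 3 to 4 and 5 or more TGANTCA matches numbered 40816, 7756, 1209, 167 and 33, and 3.34%, 7.22%, 10.8%, 17.4% and 45.5% of them were higher in pancreas. In the last of these bins, of 33 regions, the median log2FC was -1.24, between -1.48 and -0.98 in every alternative fit, and 3.03% to 18.2% were higher in pancreas when a library was left out. Their median CPM was 3.29 in lung, 7.53 in pancreas, 2.76 in BM, 9.10 in LI and 4.65 in SI, so LI and pancreas stood above the other tissues. For AGATAA, 3.69%, 6.27%, 8.16% and 14.2% of the regions with 0, 1, 2 and 3 to 4 matches were higher in pancreas, and 0 of the 6 regions with 5 or more. A match is a string of letters and does not show that a factor was bound.

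**Figure D2:**
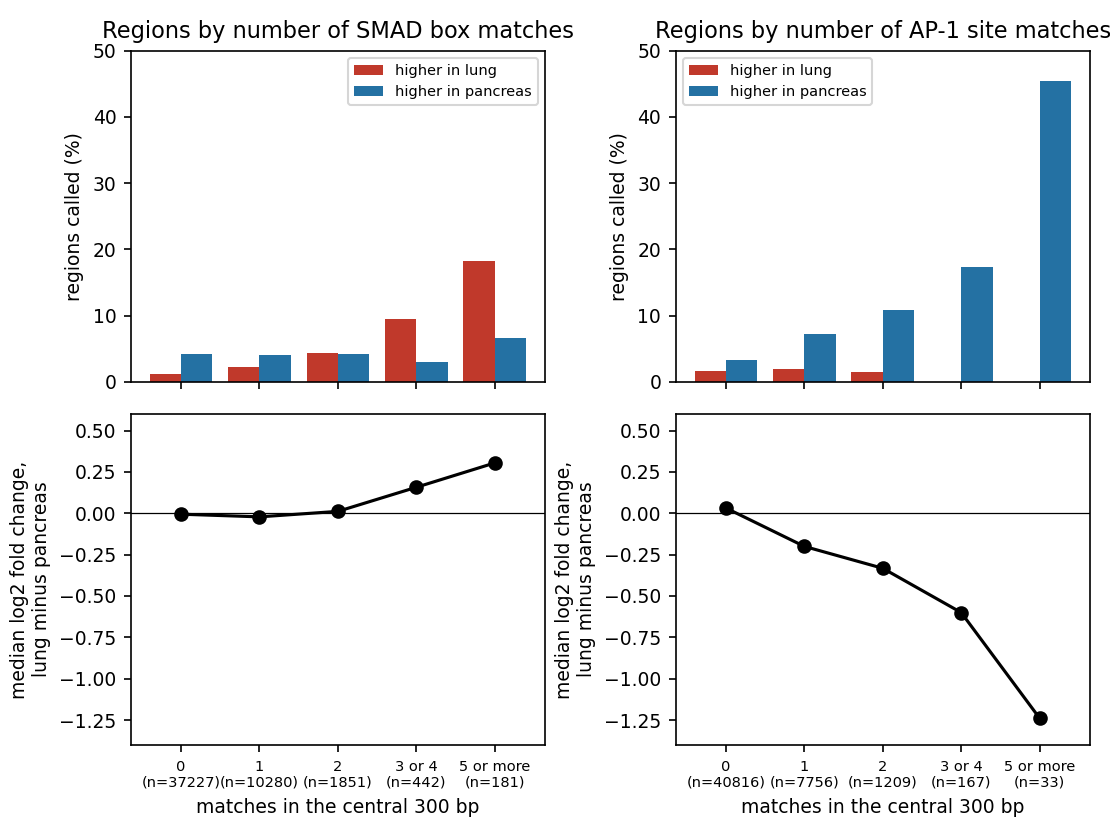
The share of regions called higher in lung and higher in pancreas (percent) and the median log2 fold change, lung over pancreas, are plotted against the number of SMAD box matches (CAGACA, left) and AP-1 matches (TGANTCA, right) in the central 300 bp. The lung share climbs to 18.2% at 5 or more CAGACA matches and the pancreas share to 45.5% at 5 or more TGANTCA matches.

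Other letters also differed in frequency between the called regions. TGTGGTT, bound by RUNX factors, was present in 20.0% of the regions higher in lung, 13.4% of those higher in pancreas and 13.0% of all. AGGTCA, the half-site of ROR and other nuclear receptors, was present in 22.3%, 26.4% and 18.02%. GGGCGGGG, a GC-rich site of KLF factors, was present in 6.81%, 1.10% and 10.3%, and AGGGGGC, part of the CTCF site, in 6.81%, 2.38% and 9.53%. Among regions outside promoters these shares were 4.79%, 0.987% and 5.20% for GGGCGGGG and 5.19%, 2.32% and 7.98% for AGGGGGC. The GC-rich sites were thus less frequent in regions higher in pancreas, which also had the lower GC content. When the 40352 regions outside promoters were ranked from the lowest to the highest log2FC and cut into 10 groups of equal size, CAGACA was present in 38.8% of the group highest in lung, 26.8% of group 8 and 26.1% of the group highest in pancreas. TGANTCA was present in 18.8%, 14.6% and 30.3% of the same groups.

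In the TGF-β pathway more regions were higher in lung than in pancreas. Of 179 regions nearest to 27 genes of the TGF-β and SMAD pathway, 10 (5.59%) were higher in lung and 5 (2.79%) in pancreas, with a median log2FC of 0.05. The shares of all regions were 1.62% and 4.20%. Those higher in lung lay nearest Smad7 and Smad4, with 3 each, Ski, Skil and Tgfbr2, and those higher in pancreas nearest Ltbp1, Tgfbr1, Furin, Smad3 and Itgav, 1 each. The region in intron 4 of Tgfbr2, the type II receptor, had 21.6 and 30.3 CPM in lung and 7.48 and 6.90 CPM in pancreas. Both lung libraries stood clear of both pancreas libraries (log2FC 1.85, SE 0.26, adjusted p = 0.00113). The Ski region in intron 1, 5.03 kb from the TSS of this SMAD corepressor, had 24.0 and 30.7 CPM in lung and 8.48 and 7.77 CPM in pancreas (log2FC 1.75, SE 0.28, adjusted p = 0.00225). For Smad7, the inhibitory SMAD, 6 neighbouring regions including its 3 were higher in lung, by 0.90 to 1.33 on the log2 scale, and a region 20.3 kb into the gene had 30.3 and 28.0 CPM in lung and 15.3 and 16.1 CPM in pancreas. The Smad7 promoter, at 41.7 and 48.1 CPM against 31.6 and 19.2, did not pass (adjusted p = 0.0529). The Smad4 regions lay in repeats; the one with the lowest adjusted p, in intron 1 and 100% repeat, had 45.6 and 53.2 CPM in lung and 21.5 and 20.2 CPM in pancreas. The Smad3 promoter had 60.6 and 57.2 CPM in lung and 59.1 and 49.1 CPM in pancreas (adjusted p = 0.775).

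In the opposite direction, a region in intron 5 of Ltbp1, which tethers latent TGF-β to the matrix, had 15.6 and 17.9 CPM in lung and 47.0 and 48.5 CPM in pancreas. The libraries did not overlap (log2FC -1.51, SE 0.23, adjusted p = 0.00175). A region 54.4 kb upstream of Smad3 had 2.16 and 1.35 CPM in lung and 5.12 and 7.55 CPM in pancreas (adjusted p = 0.0138). The region nearest Tgfbr1, the type I receptor, lay inside Col15a1 and had 9.33 and 10.8 CPM in lung and 20.7 and 26.3 CPM in pancreas (adjusted p = 0.00497). The region nearest Furin, a protease that cleaves the TGF-β precursor, had 1.22 and 2.48 CPM in lung and 8.36 and 11.001 CPM in pancreas (adjusted p = 0.00505). The Tgfbr2 and Ltbp1 calls held without each library in turn. The calls at Tgfbr1, Smad3 and Furin were lost in some of these fits, and that of the Smad7 region in all of them. Of the calls of lowest p at Tgfbr2, Ski, Smad4 and Smad7, 1 held without lung replicate 2, 2 without pancreas replicate 1, 2 without pancreas replicate 2 and 3 without lung replicate 1.

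Pmepa1, which encodes a membrane protein that sequesters receptor-activated SMADs, had 6 of its 10 regions higher in lung, by 1.23 to 2.07 on the log2 scale. The region printed above had 55.0 and 71.5 CPM in lung and 26.7 and 25.0 CPM in pancreas (log2FC 1.29, SE 0.20, adjusted p = 0.00224). A region 12.7 kb into the gene, also with 3 SMAD boxes, had 59.2 and 67.1 CPM in lung and 29.6 and 23.9 CPM in pancreas (log2FC 1.23, SE 0.20, adjusted p = 0.00278). The Pmepa1 promoter, without a box, had 43.6 and 42.4 CPM in lung and 22.7 and 12.2 CPM in pancreas (log2FC 1.28, SE 0.24, adjusted p = 0.00639). At each of these the lung libraries stood above the pancreas libraries. None of the 6 calls held without lung replicate 2, with adjusted p-values of up to 0.107, whereas all 6 held without lung replicate 1, 4 without pancreas replicate 1 and 3 without pancreas replicate 2.

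Ldlrad4, whose product is a close relative of the Pmepa1 protein and also restrains TGF-β signalling, had the most regions higher in lung. Of its 31 regions 12 were called, by 0.87 to 2.89 on the log2 scale, and 26 had a positive log2FC. The strongest lay in intron 3, 1.08 kb upstream of an internal TSS, at 19.4 and 34.8 CPM in lung and 3.71 and 3.56 CPM in pancreas (log2FC 2.89, SE 0.38, adjusted p = 0.000938). A region 3.20 kb downstream of that TSS had 29.2 and 37.2 CPM in lung and 5.83 and 5.07 CPM in pancreas (log2FC 2.60, SE 0.28, adjusted p = 0.000348). A region with 4 SMAD boxes, also in intron 3, had 26.8 and 39.0 CPM in lung and 8.83 and 9.06 CPM in pancreas (log2FC 1.88, SE 0.28, adjusted p = 0.00152). The lung libraries lay above the pancreas libraries at all 3, and these 3 calls held without any single library. Of the 12 calls, 9 held without lung replicate 1, 6 without pancreas replicate 1, 5 without pancreas replicate 2 and 3 without lung replicate 2.

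Dkk3, a secreted protein of the Dickkopf family, had 6 of 11 regions higher in lung, by 1.45 to 2.294, and all 11 had a positive log2FC. The region 15.5 kb into the gene, with 3 SMAD boxes, had 19.8 and 34.1 CPM in lung and 4.77 and 6.36 CPM in pancreas (log2FC 2.294, SE 0.34, adjusted p = 0.00152). The region 2.996 kb upstream had 41.2 and 52.7 CPM in lung, 9.66 and 14.8 CPM in pancreas, and means of 16.6 in BM, 36.7 in LI and 35.6 in SI. Pancreas and BM were thus the low tissues there. Cxcr4, the receptor for the chemokine CXCL12, had 6 of 23 regions higher in lung, by 0.91 to 1.85, and all 23 had a positive log2FC. Its region 117 kb upstream had 11.6 and 14.05 CPM in lung and 3.71 and 3.99 CPM in pancreas (log2FC 1.74, SE 0.33, adjusted p = 0.00660). None of the 6 Cxcr4 calls held without lung replicate 2, with 5 holding without lung replicate 1, 1 without pancreas replicate 1 and 2 without pancreas replicate 2, while 3, 6, 3 and 5 of the 6 Dkk3 calls held without the same libraries. E230029C05Rik, Aebp2 and Ankrd6 had 5 regions each, and the leading region in intron 1 of E230029C05Rik had 49.8 and 63.0 CPM in lung and 8.54 and 11.001 CPM in pancreas (log2FC 2.54, SE 0.28, adjusted p = 0.000348), a call that held without each library.

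**Figure D3:**
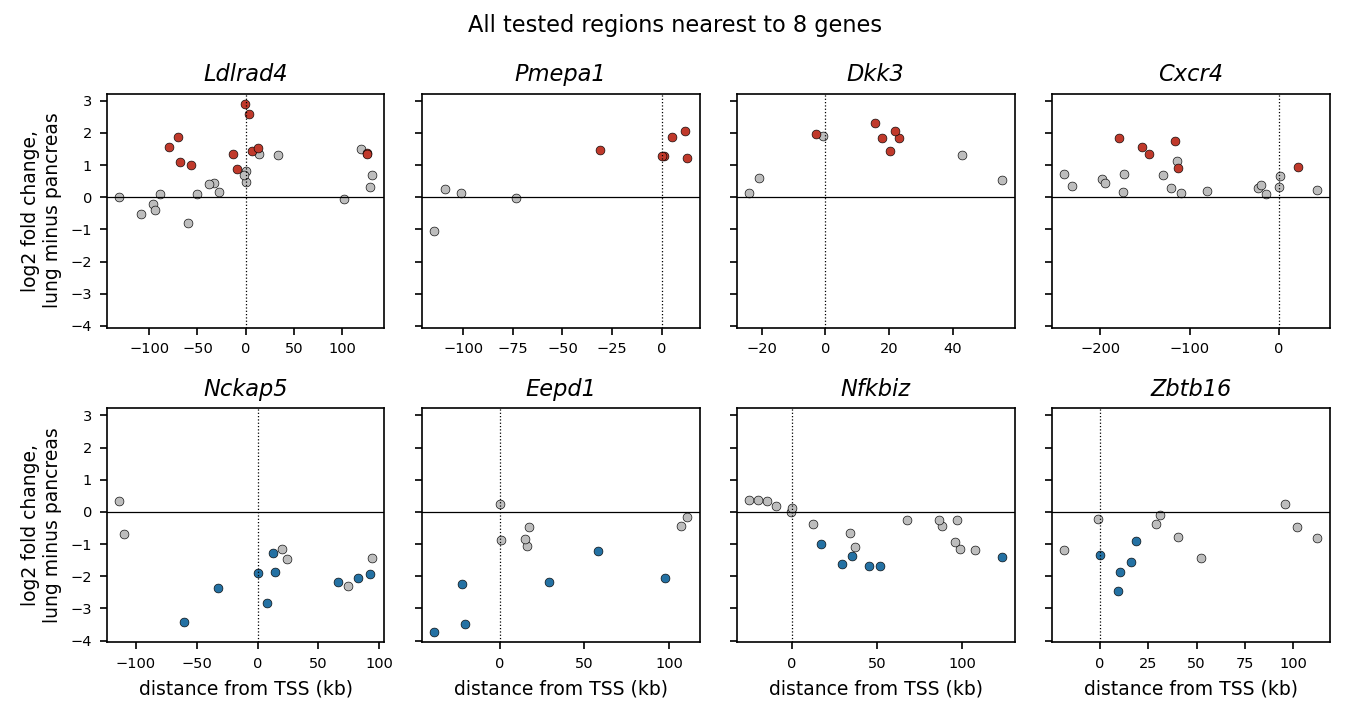
The log2 fold changes, lung over pancreas, of the regions nearest to genes with many called regions are plotted against distance from the TSS in kb, with called regions coloured and the others grey. At Ldlrad4, Pmepa1, Dkk3 and Cxcr4 the called regions lie above 0, and at Nckap5, Eepd1, Nfkbiz and Zbtb16 they lie below it.

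Tandem arrays of SMAD boxes were higher in lung near several immune genes. The array nearest Arg1, the arginase that ILC2s express, held 32 boxes in its central 300 bp, lay 13.5 kb upstream and had 5.92 and 12.6 CPM in lung and 0.942 and 2.16 CPM in pancreas (log2FC 2.65, SE 0.55, adjusted p = 0.0102). The Arg1 promoter itself had 38.2 and 55.1 CPM in lung and 37.2 and 40.0 CPM in pancreas (adjusted p = 0.515). The study's single-cell RNA-seq placed Arg1 higher in pancreas ILC2s than in the other tissues. The Arg1 array, the 1 region called of the 14 nearest this gene, went the other way. An array of 21 boxes 8.22 kb upstream of Il1rl1, which encodes the IL-33 receptor ST2 used in the sort, had 11.2 and 28.1 CPM in lung and 5.12 and 3.34 CPM in pancreas (log2FC 2.19, SE 0.43, adjusted p = 0.00737). In BM, LI and SI its means were 3.51, 1.44 and 0.566 CPM, so lung was the high tissue, though SI ILC2s were not gated on ST2. The array printed for Galnt4, with 13 boxes and no annotated repeat, had 25.6 and 48.1 CPM in lung, 5.36 and 5.82 CPM in pancreas and means of 9.32 in BM, 3.09 in LI and 3.21 in SI (log2FC 2.73, SE 0.35, adjusted p = 0.000840). The arrays nearest Itga4, the α4 integrin, with 42 boxes, and in Rhoh, a small GTPase of lymphocytes, with 13, had log2FC of 2.18 and 1.90.

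Lung replicate 2 was above lung replicate 1 at all 5 arrays. Without lung replicate 2 the adjusted p was 0.20 at Arg1, 0.26 at Il1rl1, 0.19 at Itga4 and 0.12 at Rhoh, and 0.024 at Galnt4. A box array in intron 1 of Alox5ap, which presents arachidonic acid to 5-lipoxygenase, had 3.21 and 4.97 CPM in lung and 0.648 and 1.19 CPM in pancreas (log2FC 2.22, SE 0.55, adjusted p = 0.0259), and 0.26 without lung replicate 2. The repeat share was 68.8% at Arg1, 54.8% at Il1rl1, 84.2% at Itga4 and 61.4% at Alox5ap. Short reads are placed less surely in such sequence, and the part of that in these counts was not tested.

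Among the 10 largest changes with at least 5 CPM, the top region in lung was the one with the palindrome nearest Olfr9, an olfactory receptor gene, printed above. It had 17.5 and 22.4 CPM in lung, 2.36 and 1.83 CPM in pancreas and 1.26 to 3.39 CPM as means of the other tissues (log2FC 3.23, SE 0.34, adjusted p = 0.000348). The Plekhg1 region with the palindrome had 14.9 and 23.7 CPM in lung and 3.24 and 1.83 CPM in pancreas (log2FC 2.88, SE 0.36, adjusted p = 0.000655). LI, at 13.1 CPM, was close to lung there. A region nearest Zfp706 had 17.2 and 20.5 CPM in lung and 2.59 and 3.02 CPM in pancreas (log2FC 2.76, SE 0.37, adjusted p = 0.000984). Regions in introns of Atg7, an autophagy enzyme, of Med12l and of Sncaip, in an exon of Ppfia1 and 311 kb from Tcim made up the rest with Ldlrad4 and Galnt4, at log2FC of 2.69 to 2.82. Without lung replicate 2 or without pancreas replicate 1, 8 of the 10 calls held.

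Of the 57 promoters higher in lung, 3 were named by the same rule. The promoter of Tnk2, a tyrosine kinase, had 41.6 and 49.9 CPM in lung and 13.2 and 11.9 CPM in pancreas (log2FC 1.86, SE 0.27, adjusted p = 0.00136). The promoter of the long non-coding RNA 9230112J17Rik, with 2 SMAD boxes, had 22.4 and 16.7 CPM in lung and 4.37 to 5.29 CPM in pancreas and the means of the other tissues (log2FC 1.99, SE 0.28, adjusted p = 0.00123). The promoter of Epas1, the hypoxia-inducible factor HIF-2α, had 62.0 and 76.6 CPM in lung, 35.6 and 27.2 CPM in pancreas, and means of 66.2 in LI and 82.0 in SI (log2FC 1.14, SE 0.20, adjusted p = 0.00378). All 13 regions of Epas1 had a positive log2FC and 4 were higher in lung. The Epas1 promoter did not pass without lung replicate 2 (adjusted p = 0.10) or pancreas replicate 2 (0.069).

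Homing receptors had regions called in both directions. Of 246 regions nearest to 31 genes of chemokine receptors, integrins and homing, 13 (5.28%) were higher in lung and 6 (2.44%) in pancreas, with a median log2FC of -0.00. Over all regions these shares were 1.62% and 4.20%, so the pancreas share of the list lay below that of all regions. Those higher in lung were Cxcr4 with 6 and Itgae, Itga4, Ccr1, Itgb7, Cx3cr1 and Cd44. The region 4.20 kb into Itgae, which encodes the αE integrin CD103 of tissue-resident lymphocytes, had 4.16 and 5.58 CPM in lung and 0.766 and 1.29 CPM in pancreas (log2FC 2.30, SE 0.42, adjusted p = 0.00505). SI, at 4.87 CPM, was as high as lung. Those higher in pancreas included regions nearest Gpr15, Gpr183, Itga2 and Itga4. A region with 3 GATA letters 3.60 kb upstream of Gpr15, a receptor that guides T cells to the colon, had 7.17 and 5.47 CPM in lung, 17.2 and 18.8 CPM in pancreas and a mean of 20.9 CPM in LI (log2FC -1.51, SE 0.27, adjusted p = 0.00434). Without lung replicate 2, none of the calls at Itgae, Itga4, Ccr1 and Cxcr4 and none at Gpr15, Gpr183 and Itga2 held. Of the calls at Itgae, Itga4 and Ccr1 none held without pancreas replicate 1, and that of Itgae held without pancreas replicate 2. Of the calls at Gpr15, Gpr183 and Itga2, that of Gpr15 held without lung replicate 1 and without pancreas replicate 1.

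Receptors for neuropeptides and other neural signals held the largest share of called regions among the 13 pathway lists. Of 72 regions nearest to 11 genes, 7 (9.72%) were higher in lung and 5 (6.94%) in pancreas, with a median log2FC of 0.11. Among all regions 1.62% were higher in lung and 4.20% in pancreas. Of the 7 in lung, 4 lay nearest Vipr2, the receptor VPAC2 for vasoactive intestinal peptide, and 2 nearest Calcrl, part of the CGRP receptor. The region 4.11 kb upstream of Vipr2 had 8.66 and 10.5 CPM in lung and 2.18 and 2.16 CPM in pancreas (log2FC 2.14, SE 0.33, adjusted p = 0.00187). The region in intron 5 of Calcrl, with 2 SMAD boxes, had 11.4 and 15.9 CPM in lung and 4.005 and 4.098 CPM in pancreas (log2FC 1.75, SE 0.32, adjusted p = 0.00528). The 5 in pancreas lay nearest Adora2a, an adenosine receptor, with 4, and Htr1b, a serotonin receptor, with 1. The Htr1b promoter had 5.21 and 6.51 CPM in lung and 19.6 and 20.1 CPM in pancreas (log2FC -1.75, SE 0.26, adjusted p = 0.00156). The Vipr2 and Htr1b calls held without each library. The Adora2a region did not hold without any of the 4 and the Calcrl call held only without lung replicate 1.

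On the pancreas side, Eepd1, Nckap5, Nfkbiz and Il6 had several called regions each. Eepd1, an endonuclease and phosphatase domain gene, had 6 of 13 regions higher in pancreas, by -3.72 to -1.23 on the log2 scale. The region printed above, 38.7 kb upstream, had 0.862 and 0.469 CPM in lung and 8.54 and 8.84 CPM in pancreas (log2FC -3.72, SE 0.41, adjusted p = 0.000348). A neighbour 20.5 kb upstream, with 3 GATA and 1 AP-1 match, had 1.803 and 0.938 CPM in lung and 13.5 and 16.9 CPM in pancreas (log2FC -3.49, SE 0.39, adjusted p = 0.000348). A region 22.5 kb upstream had 8.27 and 8.36 CPM in lung, 38.6 and 40.6 CPM in pancreas and means of 5.63 to 14.9 CPM in the other tissues (log2FC -2.25, SE 0.29, adjusted p = 0.000909). Pancreas was the high tissue at all 3, and the calls held without each library. Of the 6 calls, 5 held without lung replicate 1 and without pancreas replicate 1, and 3 without lung replicate 2 and without pancreas replicate 2.

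Nckap5 had 9 of 15 regions higher in pancreas, by -3.42 to -1.28. The region 8.03 kb into intron 1 had 7.61 and 5.19 CPM in lung and 43.6 and 46.6 CPM in pancreas (log2FC -2.82, SE 0.27, adjusted p = 0.000214), and its means were 17.6 CPM in BM, 55.5 in LI and 44.3 in SI. Lung was the low tissue at this region, with LI above both pancreas libraries and SI between them. Only this call of the 9 held without lung replicate 2, with 2 holding without pancreas replicate 2, 7 without pancreas replicate 1 and 8 without lung replicate 1. Nfkbiz, which encodes the nuclear regulator IκBζ, had 6 of 22 regions higher in pancreas, 17.1 to 123 kb downstream of its TSS, by -1.67 to -1.005. The region 51.7 kb away, with 1 AP-1 and 1 GATA match, had 10.9 and 7.51 CPM in lung and 34.5 and 23.6 CPM in pancreas (log2FC -1.67, SE 0.28, adjusted p = 0.00310). None of the Nfkbiz calls held without lung replicate 2, and 3, 2 and 1 held without lung replicate 1, pancreas replicate 1 and pancreas replicate 2.

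Il6, a cytokine gene, had 5 of 13 regions higher in pancreas. The region printed above, 120 kb upstream, had 1.72 and 2.04 CPM in lung and 5.18 and 11.001 CPM in pancreas (log2FC -2.07, SE 0.39, adjusted p = 0.00585), with adjusted p-values of 0.075 without lung replicate 2 and 0.12 without pancreas replicate 2. Zbtb16, which encodes PLZF, a factor of ILC precursors, had 5 of 14 regions higher in pancreas. The region 9.45 kb into the gene had 2.04 and 1.68 CPM in lung and 10.3 and 10.0 CPM in pancreas (log2FC -2.45, SE 0.30, adjusted p = 0.000655). This call held without each library, and BM, LI and SI lay between, at 4.14 to 4.74 CPM. Other genes with many regions higher in pancreas were Gm12596 with 8 of 21, Nedd4l with 7 of 18, and Mdfic, Clnk and Mir6390 with 6 of 26, 12 and 8. The 24 regions of 27 nearest Mir101c all lay in satellite-like sequence at the start of chromosome 9, 88.4% to 100% repeat, at log2FC of -1.89 to -1.70. None of these 24 calls held without lung replicate 1, lung replicate 2 or pancreas replicate 2, and 6 held without pancreas replicate 1.

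Among the 10 largest changes higher in pancreas, a region in intron 1 of Tmem150c, nearest Tmem150cos, had 0.314 and 0.138 CPM in lung and 4.89 and 5.50 CPM in pancreas (log2FC -4.55, SE 0.55, adjusted p = 0.000518). A region nearest Rnf152, a ubiquitin ligase, had 1.53 and 1.10 CPM in lung and 10.5 and 19.1 CPM in pancreas (log2FC -3.49, SE 0.42, adjusted p = 0.000494). A region 6.87 kb upstream of Ntn5, a netrin, had 0.745 and 0.828 CPM in lung and 7.48 and 9.71 CPM in pancreas (log2FC -3.43, SE 0.40, adjusted p = 0.000410). Pancreas stood above lung in every library at each. A region 83.1 kb upstream of Plcl2 had 2.86 and 0.662 CPM in lung and 15.1 and 19.5 CPM in pancreas (log2FC -3.34, SE 0.44, adjusted p = 0.000969). The others, beside Eepd1, lay nearest 4930440C22Rik, 9130019P16Rik (in intron 1 of Wipf3), Tmprss11g, Slc45a1 and Insyn2a (in intron 29 of Dock1), at log2FC of -3.65 to -3.26. The Tmprss11g call did not hold without lung replicate 2 (adjusted p = 0.10) or without pancreas replicate 2 (0.054), and the other 9 held without each library.

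The 3 promoters named among the 73 higher in pancreas held without each library. The promoter of an internal TSS of Bfsp2, known as a lens filament gene, had 5.41 and 6.18 CPM in lung and 21.0 and 19.1 CPM in pancreas (log2FC -1.79, SE 0.24, adjusted p = 0.000962). BM, LI and SI, at 14.1 to 18.6 CPM, were close to pancreas, so lung was the low tissue. The promoter of D430036J16Rik, which overlaps the end of Htr1b, had 5.21 and 5.24 CPM in lung and 17.1 and 18.7 CPM in pancreas (log2FC -1.77, SE 0.26, adjusted p = 0.00136). The promoter of Noxa1, an activator of NADPH oxidase, had 6.74 and 5.00 CPM in lung and 27.1 and 19.5 CPM in pancreas (log2FC -2.00, SE 0.29, adjusted p = 0.00136).

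**Figure D4:**
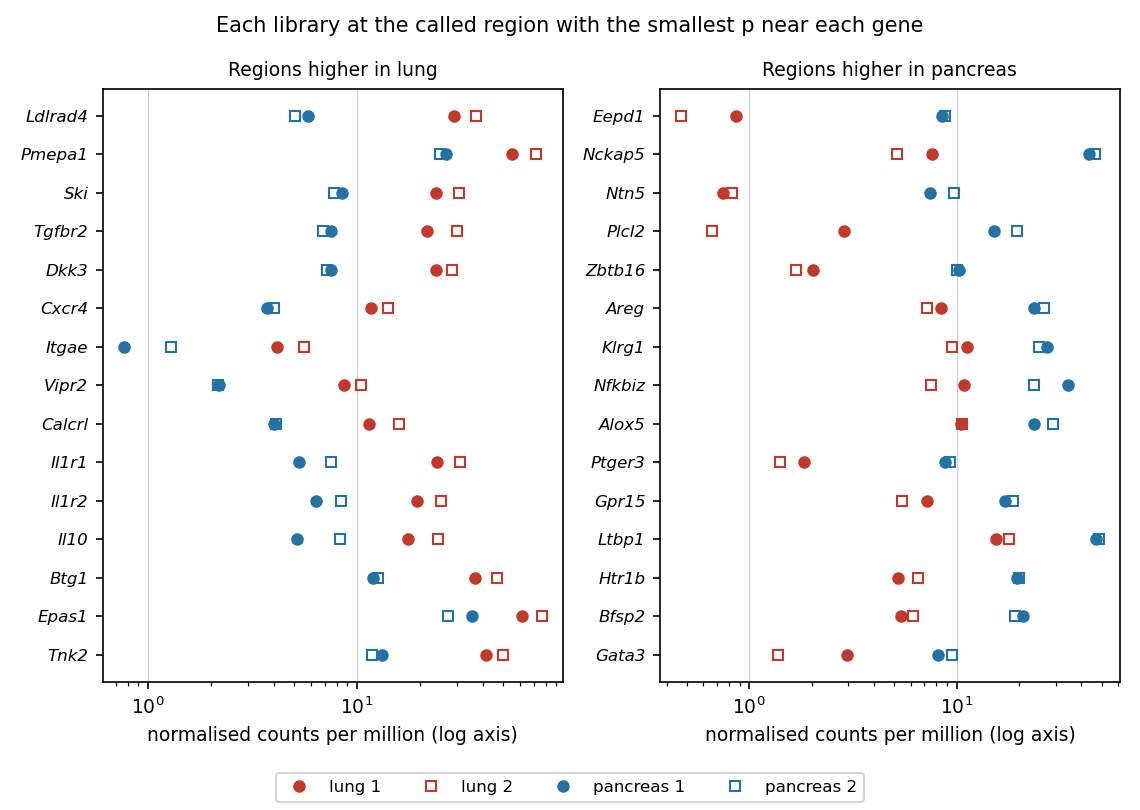
CPM on a log scale in each lung and pancreas library is plotted for the called region of smallest p near a selection of the named genes in each direction. In every row the 2 lung points and the 2 pancreas points are apart, as at all called regions.

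Of 98 regions of the leukotriene and prostaglandin pathway, 7 (7.14%) were higher in pancreas and 2 (2.04%) in lung, against 4.20% and 1.62% of all regions, with a median log2FC of -0.18. Those higher in pancreas lay nearest Ptger3 with 3, Alox5 with 2, and Hpgds and Ptger1. The promoter of Ptger3, the prostaglandin E2 receptor EP3, had 1.84 and 1.41 CPM in lung and 8.77 and 9.28 CPM in pancreas (log2FC -2.48, SE 0.37, adjusted p = 0.00152). The region in intron 3 of Alox5, the 5-lipoxygenase that starts leukotriene synthesis, had 10.5 and 10.6 CPM in lung, 23.6 and 29.2 CPM in pancreas and means of 3.70 to 6.40 CPM in the other tissues (log2FC -1.32, SE 0.25, adjusted p = 0.00655). Of 10 Alox5 regions 9 had a negative log2FC. The Alox5 call did not hold without lung replicate 2 (adjusted p = 0.11) or pancreas replicate 2 (0.10), and of the calls of lowest p at Ptger3, Alox5, Hpgds and Ptger1 only that of Ptger3 held without either of these libraries. The 2 higher in lung, Alox5ap and Lpcat2, both lost the call without lung replicate 2, pancreas replicate 1 or pancreas replicate 2, and Lpcat2 also without lung replicate 1.

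In the NF-κB and TNF receptor list 7 (4.76%) of 147 regions were higher in pancreas, 6 at Nfkbiz and 1 in Nfkb1, and 1 (0.680%), in Tnfrsf1b, was higher in lung. For this list and the next ones, the shares of all regions were 4.20% in pancreas and 1.62% in lung. The Tnfrsf1b region had 60.7 and 88.1 CPM in lung and 29.9 and 32.6 CPM in pancreas (log2FC 1.25, SE 0.23, adjusted p = 0.00557), and 0.14 without lung replicate 2. Of 107 interferon-response regions 7 (6.54%) were higher in pancreas, nearest Irf8 with 3, Ifitm1, Ifitm2 and Ly6a, and 1 (0.935%), nearest Ly6e, in lung. The Irf8 region, near the gene of a myeloid and lymphoid regulator, had 5.92 and 8.28 CPM in lung and 20.1 and 23.8 CPM in pancreas (log2FC -1.62, SE 0.31, adjusted p = 0.00701), and 1 of its 4 fits without a library kept the call. In arginine and polyamine metabolism 4 (6.25%) of 64 regions were higher in pancreas, at Slc7a1, Azin1, Oat and Arg2, and 1 (1.56%), the Arg1 array, in lung. The pancreas calls of that list were lost in all fits without a library, save Azin1 without pancreas replicate 1. Lipid metabolism and PPAR genes had 3 of 100 regions higher in pancreas, Fabp5 and Rxra among their nearest genes, and 2 higher in lung, at Abcg1 and Scd2. The region nearest Fabp5, a fatty acid carrier, held 4 AP-1 matches and had 6.55 and 7.51 CPM in lung and 24.7 and 18.01 CPM in pancreas (log2FC -1.61, SE 0.27, adjusted p = 0.00322), and 0.056 without lung replicate 2. Galectin, S100, annexin and cytoskeleton genes had 0 of 79 regions higher in lung and 1 (1.27%), near S100a10, higher in pancreas.

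**Figure D5:**
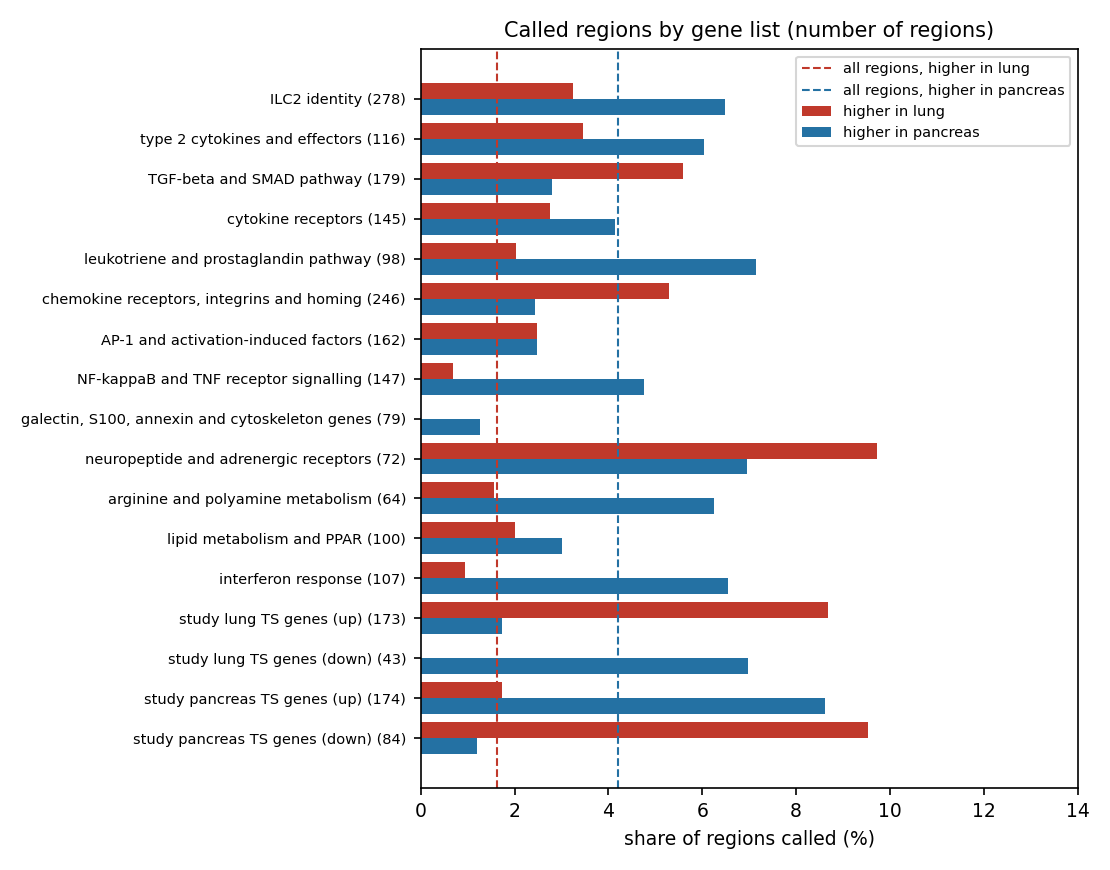
For each gene list, bars give the percentage of its regions higher in lung and higher in pancreas, with lines at the 1.62% and 4.20% of all regions. Among the pathway lists, the neuropeptide list has the longest lung bar at 9.72%, and the leukotriene and prostaglandin list has the longest pancreas bar at 7.14%. The study's pancreas TS list has a longer pancreas bar, at 8.62%.

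Genes of ILC2 identity had regions called in both directions, while the promoters of Gata3, Rora and Il1rl1 did not pass the test. Of 278 regions nearest to 19 identity genes 9 (3.24%) were higher in lung and 18 (6.47%) in pancreas, with a median log2FC of -0.05. Over all regions these shares were 1.62% and 4.20%. The promoter of Gata3 had 41.8 and 53.3 CPM in lung and 50.8 and 49.9 CPM in pancreas (adjusted p = 0.845). The promoter of Rora had 63.6 and 59.4 CPM in lung and 62.7 and 53.7 CPM in pancreas (adjusted p = 0.867), and that of Il1rl1 had 15.1 and 24.1 CPM against 27.0 and 15.2 (adjusted p = 0.874). The groups overlapped or touched at these promoters. The AP-1 array 102 kb downstream of the Gata3 TSS had 2.98 and 1.38 CPM in lung, 8.13 and 9.49 CPM in pancreas and a mean of 33.6 CPM in LI (log2FC -2.03, SE 0.33, adjusted p = 0.00278, and 0.069 without lung replicate 2). A region in intron 1 of Rora had 15.3 and 23.3 CPM in lung and 4.005 and 7.77 CPM in pancreas (log2FC 1.75, SE 0.32, adjusted p = 0.00509, and 0.11 without lung replicate 2). A pair of other Rora regions went the opposite way, at 11.1 and 10.8 CPM in lung and 22.2 and 23.8 CPM in pancreas (log2FC -1.07, adjusted p = 0.0367) and at 21.0 and 26.6 CPM against 43.4 and 37.1 CPM (log2FC -0.76, adjusted p = 0.0326). A region 130 kb downstream of the Gata3 TSS was higher in lung (log2FC 1.08, adjusted p = 0.0321). A region in intron 3 of Bcl11b, a factor that maintains ILC2s, had 24.3 and 23.2 CPM in lung and 9.83 and 11.2 CPM in pancreas (log2FC 1.18, SE 0.23, adjusted p = 0.00688), and the call held only without lung replicate 1. A region in Il2ra, the gene for the gate marker CD25, had 5.61 and 7.89 CPM in lung and 14.2 and 20.0 CPM in pancreas (log2FC -1.33, SE 0.29, adjusted p = 0.0151), held only without pancreas replicate 1.

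Type 2 cytokine and effector genes had 4 (3.45%) of 116 regions higher in lung, at Il10, Arg1 and Il13, and 7 (6.03%) higher in pancreas, at Il6, Areg and Cxcl2. For these lists too, the shares of all regions were 1.62% and 4.20%. The region 26.0 kb upstream of Il10, an anti-inflammatory cytokine, had 17.5 and 24.5 CPM in lung and 5.18 and 8.30 CPM in pancreas (log2FC 1.66, SE 0.30, adjusted p = 0.00448). The region 3.59 kb downstream of the Il13 TSS had 19.9 and 29.8 CPM in lung and 11.8 and 8.30 CPM in pancreas (log2FC 1.29, SE 0.29, adjusted p = 0.0157). The region 15.4 kb upstream of Areg, the gene of the repair factor amphiregulin, had 8.39 and 7.20 CPM in lung and 23.6 and 26.5 CPM in pancreas (log2FC -1.68, SE 0.30, adjusted p = 0.00440). The Il10, Il13 and Areg calls were lost without lung replicate 2, at adjusted p-values of 0.091, 0.26 and 0.090. Cytokine receptors had 4 (2.76%) of 145 regions higher in lung, at Il1r1, Il1r2, Il1rl1 and Il17ra, and 6 (4.14%) in pancreas, at Il6st, Il2ra, Il4ra and Il1rl1. The pancreas share of this list was near the 4.20% of all regions. The region in intron 2 of Il1r1, the IL-1 receptor, had 24.3 and 31.1 CPM in lung and 5.30 and 7.55 CPM in pancreas (log2FC 2.13, SE 0.30, adjusted p = 0.00126), and the call held without each library. AP-1 and activation-induced genes themselves had 4 (2.47%) of 162 regions called in each direction, with a median log2FC of 0.08. A region 16.6 kb from the TSS of Jun had 1.29 and 1.13 CPM in lung and 4.36 and 6.90 CPM in pancreas (log2FC -2.20, SE 0.43, adjusted p = 0.00788, and 0.12 without lung replicate 2).

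The study also named genes by single-cell RNA-seq whose expression in ILC2s of a tissue differed from that in the others, the tissue-specific (TS) genes, with the lung and pancreas cells in different batches of that assay. Among all regions, 1.62% were higher in lung and 4.20% in pancreas. Of 173 regions nearest to 27 of the 44 lung TS genes, 15 (8.67%) were higher in lung and 3 (1.73%) in pancreas, with a median log2FC of 0.11. Of 174 regions nearest to 39 of the 41 pancreas TS genes, 3 (1.72%) were higher in lung and 15 (8.62%) in pancreas, with a median of -0.11. The 3 higher in lung lay nearest Arg1, Lpcat2 and Sh3bgrl3. The genes lower in pancreas had 8 (9.52%) of 84 regions higher in lung and 1 (1.19%) in pancreas, and those lower in lung 0 of 43 and 3 (6.98%). Btg1, an antiproliferative gene of the lung list, had a region 156 kb upstream at 36.8 and 46.6 CPM in lung and 11.96 and 12.6 CPM in pancreas (log2FC 1.77, SE 0.24, adjusted p = 0.000978), held without each library, and a promoter at 96.9 and 95.1 against 89.5 and 78.2 CPM (adjusted p = 0.609). Stc2, a secreted glycoprotein of the pancreas list, had a region at 2.59 and 2.07 CPM in lung, 10.3 and 12.4 CPM in pancreas and 0.549 to 1.07 CPM as means elsewhere (log2FC -2.28, SE 0.43, adjusted p = 0.00637, and 0.12 without lung replicate 2). Galectin-1 protein was reported by the study as a marker of both lung and pancreas ILC2s, while its mRNA was on the pancreas list. Its gene Lgals1 had 0 of 3 regions called, with the promoter at 18.3 and 19.4 CPM in lung and 21.0 and 23.0 CPM in pancreas (adjusted p = 0.607). Nrp1, Ccl5 and Yes1 of the lung list likewise had no region called among 3, 4 and 1, with the Yes1 promoter at an adjusted p of 0.0680. Ass1 and Cd24a of the pancreas list had none called among 5 and 2.

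The other tissues placed these differences. The regions higher in lung had median CPM of 14.4 and 17.0 in the lung libraries and 5.71 and 6.15 in the pancreas libraries, while BM, LI and SI stood at 6.78, 9.20 and 9.06. Those higher in pancreas had medians of 3.72 and 3.15 CPM in the lung libraries and 9.48 and 10.8 CPM in the pancreas libraries, while BM, LI and SI stood at 4.51, 8.12 and 5.33. On the log2(CPM + 0.5) scale BM was nearer to pancreas than to lung in 564 (69.8%) of the regions higher in lung and nearer to lung in 1390 (66.2%) of those higher in pancreas, against 43.0% and 57.0% of all regions. LI was nearer to pancreas in 1600 (76.2%) of the regions higher in pancreas, against 59.8% of all regions, and in 470 (58.2%) of those higher in lung. SI was nearer to lung in 1310 (62.4%) of the regions higher in pancreas, against 53.3% of all regions. These shares describe levels and carry no test, since the regions were picked by their lung and pancreas values.

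Markers of other cells were mostly not called. None of the regions nearest to B cell, T cell, neutrophil, dendritic cell, exocrine and islet markers passed in either direction. The list genes Ms4a1, Cd8a, Csf1r, Lyz2, Ly6g, Ins1, Ins2, Pdx1, Pnlip, Sftpc, Nkx2-1 and Cdh5 had no region nearest to them, but others of their lists did. A region lay nearest to 3 of 8 B cell, 6 of 8 T cell, 6 of 8 macrophage and monocyte and 4 of 7 neutrophil genes. The same held for 5 of 10 exocrine, 4 of 8 islet, 5 of 8 lung epithelium and 5 of 7 endothelial genes. The summed level over 17 regions of the exocrine list was 320 and 317 CPM in lung and 298 and 294 in pancreas, and over 17 of the lung epithelium list it was 177 and 176 against 180 and 167, with 1 region, nearest Sftpb, higher in pancreas. In the fibroblast and stroma list 1 of 8 regions, nearest Col1a2, was higher in pancreas. Endothelial markers had 3 of 24 regions higher in pancreas, nearest Kdr and Vwf, with sums of 190 and 193 CPM in lung and 265 and 257 in pancreas. The promoter of Spi1, the myeloid factor PU.1, had 0.941 and 0.386 CPM in lung and 2.94 and 3.88 CPM in pancreas (log2FC -2.38, adjusted p = 0.0328), and Hdc of the mast cell list had 2 regions higher in pancreas. ILC3 markers had 3 of 18 regions higher in lung, nearest Il1r1 and Il17a, with sums of 169 and 158 CPM against 102 and 111, and no region nearest Il23r or Ncr1. NK cell and ILC1 markers had 2 of 29 regions higher in pancreas, nearest Gzmb and Itga2, with sums of 360 and 364 CPM against 361 and 352. The part of other cells in the results was not tested, and fewer cells of a kind and less open DNA per cell cannot be told apart.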

How the data were processed

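The deposited file holds raw counts of ATAC-seq reads per merged region in 10 libraries, 2 from each of 5 tissues, and the authors had made it with FastQC 0.11.9, trimming, Bowtie2 2.2.9 on mm10 with uniquely mapped reads kept, SAMtools, MACS2 2.1.1 peak calls present in both replicates, a merge over tissues, and read counting in the merged regions. Removal of duplicates, of mitochondrial reads or of blacklisted regions and a shift for the Tn5 cut are not given in the sources used here. The totals of the lung and pancreas libraries ranged from 10282987 to 32797872 counts, and the smaller pancreas libraries set the precision.

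All 49981 regions with at least 1 count were fitted with edgeR 4.0.16 in R 4.3.3 (quasi-likelihood test, two-sided, TMM scaling, 5 tissues of 2 libraries in 1 fit, biological coefficient of variation 0.212), and the contrast of lung with pancreas was adjusted over all of them by Benjamini-Hochberg. CPM used TMM-scaled library sizes, and fold changes came from the fit with edgeR's default prior count. A prior count of 2 entered only the log2 CPM used for removing trends and comparing replicates. The fit was tested on simulated data. Nearest genes, promoters (1000 bp before to 100 bp after a TSS), introns and sequence came from RefSeq on mm10, read with pysam 0.24.0, with repeats as the genome's soft-masked letters. Motif letters were searched on both strands in the central 300 bp of a region, and a match may overlap another.

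The regions named were, in each direction, the 10 with the largest fold change among called regions of at least 5 CPM whose libraries did not overlap (1 a gene), the 5 genes with the most called regions, the 3 promoters of lowest p, up to 4 genes of each list, and genes the study discussed. Epas1, the neighbours of Smad7, the second and later regions given for Rora and Gata3, the marker genes with calls, counts of positive and negative regions, and the regions printed as sequence were chosen after their values were seen. The gene lists, motifs and this rule were chosen with earlier results of these data known. Alternatives used other scalings, tools, filters, thresholds and samples. Replicate numbers were treated as names only. Some regions that the rule names are not reported here.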

Additional observations from a re-analysis of the deposited data

How the results depend on the processing

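The count of regions that differed was 2907 and became 5995 when edgeR fitted the 4 lung and pancreas libraries alone, 10367 at an unadjusted p under 0.05, and 210 to 1578 when a library was left out. For regions higher in lung the count of 808 became 1787 with scaling by library size alone, 1504 with DESeq2 on the 4 libraries, 2087 with edgeR on the 4 libraries, 3691 unadjusted, and 81 to 460 when a library was left out. For regions higher in pancreas the count of 2099 became 1234 with library size alone, 3908 with edgeR on the 4 libraries, 6676 unadjusted, and 129 to 1118 when a library was left out.

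The promoter share of the regions higher in lung was 7.05% and became 14.9% with library size alone, 11.2% with DESeq2 on 10 libraries, 16.6% with DESeq2 and 17.1% with edgeR on the 4 libraries, 4.07% with the GC and width trend removed, 4.51% with the mean count trend removed, 10.5% with the crossed block, 22.9% unadjusted, 3.60% at a log2 fold change above 1, 9.65% with a window of 1000 bp on both sides, and 2.47% to 18.5% when a library was left out. The share for pancreas was 3.48% and became 4.84% with edgeR on the 4 libraries, 4.74% with the GC and width trend removed, 5.33% unadjusted, 5.29% with the wider window, and 2.27% to 4.65% when a library was left out. The cause of these shifts was not tested.

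With the replicate number as a block, 874 regions were higher in lung and 2400 in pancreas, but the numbers are only names, and the deviations of same-numbered lung and pancreas libraries correlated at -0.218. A block with the pancreas numbers crossed, chosen after seeing the data, gave 4397 regions in all, 1147 in lung and 3250 in pancreas. Scaling without the regions of over 20000 mean counts, also chosen after seeing the data, gave 785 and 2107.

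The direction of all 808 and 2099 calls held in every refit, except that 2096 of the 2099 held it with the mean count trend removed. It could hardly have come out otherwise. The refits use the counts that chose the calls, and the lung and pancreas libraries did not overlap at any called region. Of 230 called regions that are named or belong to the named clusters, 43 kept the call in all 4 fits without a library and 73 in none. A filter at 10 counts in at least 2 libraries removed no call. Pancreas replicate 2, the shallowest library, and lung replicate 2, the deepest, were those without which fewest calls remained.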
